A study of Mus musculus with 16 samples.

Results

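5-hydroxymethylcytosine (5hmC) was compared between RA+VitC iTreg, which are induced regulatory T cells that received retinoic acid (RA) and vitamin C beside TGFβ, and naive CD4 T cells, the kind of cell from which iTreg are made. The comparison used 4 of the 16 libraries of the study, which are 2 pull-downs of RA+VitC iTreg and 2 of naive cells, over all 177720 regions of the deposited table, with no region chosen by its values. The source was C57BL/6 mice of 5 to 6 weeks with a Foxp3-eGFP reporter, and the tissue was spleen and lymph nodes. The naive gate was CD4+eGFP-CD25-CD62LhiCD44lo. RA+VitC iTreg were naive CD4 T cells cultured to become iTreg with TGFβ, RA and vitamin C together, and the labels used here name no sort of the cultured cells and no duration. TGFβ iTreg, cultured with TGFβ but neither RA nor vitamin C, and Treg sorted as CD4+eGFP+, with 2 pull-downs each, are given beside them. Among the groups analysed here none was cultured without TGFβ, and none had RA without vitamin C. Effects of culture, activation, TGFβ, RA and vitamin C against naive cells therefore cannot be told apart. Whether the 2 replicates of a group were separate mice or cultures is not stated in the labels. The p-values therefore measure spread among libraries that may be technical.

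5hmC is formed when TET enzymes oxidise 5-methylcytosine, and it is both a step on the way to demethylation and a mark found over active gene bodies and enhancers. Vitamin C supports TET enzymes by keeping their iron in the reduced state. Treg are held in their suppressive state by the transcription factor Foxp3, and several of their loci, among them Foxp3, Il2ra, Ctla4, Ikzf2, Ikzf4 and Tnfrsf18, are known to be demethylated in Treg. RA is a ligand of nuclear receptors and, with TGFβ, is known to favour Foxp3 over Th17 differentiation and to induce gut-homing receptors. CMS-IP, the assay used, turns 5hmC into cytosine-5-methylenesulfonate with bisulfite and pulls it down with an antiserum. Levels below are CPM, the reads in a region or gene scaled to a library of fixed size, with TMM factors. They are relative within a library, describe 5hmC and not expression, and carry no total amount of 5hmC. In such pooled cells, fewer cells with the mark and less of it per cell cannot be told apart.

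Promoter sequences are shown for genes whose start or 5′ UTR lay in a region that differed between RA+VitC iTreg and naive cells. They run from 250 bases before to 50 after the gene start, are from RefSeq, build GRCm38.p6, and were matched by gene symbol. Their coordinates are not those of the deposited table, which is on mm9. For Foxp3, with 2 starts listed (chrX:7579426-7579725 on the plus strand and chrX:7580233-7580532 on the plus strand), for Il2ra, whose protein is CD25 (chr2:11642542-11642841 on the plus strand), and for Tnfrsf13b, a receptor of the TNF family (chr11:61126505-61126804 on the plus strand), capitals mark the CG dinucleotides, the sites where 5hmC is mainly found. There were 6 and 8 of them at the Foxp3 starts, 3 at Il2ra and 8 at Tnfrsf13b, against a median of 7 over all 32851 promoters of the table. For Cish, a feedback inhibitor of cytokine signalling induced through STAT5 (chr9:107296409-107296708 on the plus strand), capitals mark TTCNNNGAA, a spacing bound by STAT factors, which reads the same on both strands and was present in 8.3% of all promoters. For Isg15, an interferon-induced ubiquitin-like protein (chr4:156200769-156201068 on the minus strand), capitals mark 2 GAAA motifs with any 2 bases between them, a spacing found in interferon response elements, searched on both strands and present in 3.44% of promoters. Cish had 2 matches and Isg15 3, those of Isg15 overlapping each other. A match describes the letters in this window and shows no binding. The Cish region that differed most lay over its 5′ UTR, and whether it covers the window shown was not checked.
Foxp3, first start: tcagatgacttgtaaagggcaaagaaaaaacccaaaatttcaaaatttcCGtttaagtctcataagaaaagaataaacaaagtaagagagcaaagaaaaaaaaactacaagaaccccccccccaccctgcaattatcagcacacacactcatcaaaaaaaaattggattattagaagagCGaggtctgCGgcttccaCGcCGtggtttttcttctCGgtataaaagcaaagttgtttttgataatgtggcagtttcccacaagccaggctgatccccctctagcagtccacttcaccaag
Foxp3, second start: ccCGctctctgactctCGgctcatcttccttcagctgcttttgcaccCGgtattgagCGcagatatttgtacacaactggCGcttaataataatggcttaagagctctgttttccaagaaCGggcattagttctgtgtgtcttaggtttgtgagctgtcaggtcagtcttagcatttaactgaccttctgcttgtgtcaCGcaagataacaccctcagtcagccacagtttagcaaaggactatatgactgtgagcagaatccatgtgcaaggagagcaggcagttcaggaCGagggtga
Il2ra: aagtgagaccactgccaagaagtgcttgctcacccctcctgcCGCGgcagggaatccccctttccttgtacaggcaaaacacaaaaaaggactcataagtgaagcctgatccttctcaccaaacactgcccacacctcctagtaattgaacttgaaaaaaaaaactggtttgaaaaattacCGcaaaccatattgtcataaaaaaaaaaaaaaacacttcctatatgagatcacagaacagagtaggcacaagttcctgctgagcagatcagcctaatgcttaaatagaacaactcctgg
Tnfrsf13b: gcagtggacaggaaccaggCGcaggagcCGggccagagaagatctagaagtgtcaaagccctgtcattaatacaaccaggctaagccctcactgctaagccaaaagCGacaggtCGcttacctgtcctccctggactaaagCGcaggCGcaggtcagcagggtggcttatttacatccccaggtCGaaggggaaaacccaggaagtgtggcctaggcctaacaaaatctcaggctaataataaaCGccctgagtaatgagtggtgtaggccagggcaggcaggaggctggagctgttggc
Cish: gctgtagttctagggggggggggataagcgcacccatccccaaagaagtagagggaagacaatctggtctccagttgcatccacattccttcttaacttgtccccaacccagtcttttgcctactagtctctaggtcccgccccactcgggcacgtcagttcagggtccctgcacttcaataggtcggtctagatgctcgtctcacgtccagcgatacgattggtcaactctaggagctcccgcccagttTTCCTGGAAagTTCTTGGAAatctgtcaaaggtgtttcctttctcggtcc
Isg15: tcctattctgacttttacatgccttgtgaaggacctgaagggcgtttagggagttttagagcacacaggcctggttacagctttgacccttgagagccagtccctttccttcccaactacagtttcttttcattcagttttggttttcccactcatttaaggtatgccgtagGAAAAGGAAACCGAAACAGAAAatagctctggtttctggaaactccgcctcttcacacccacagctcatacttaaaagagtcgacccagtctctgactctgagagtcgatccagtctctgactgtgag

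The pull-downs held 7773777 and 9731897 reads in regions for naive cells and 3996442 and 3828487 for RA+VitC iTreg, and their ratios to the reads of their inputs were 5.5 and 6.39 against 3.88 and 3.14. The 4 matching inputs held 1028822 to 1522579 reads. A count of 0 allows up to 3 reads. Without TMM factors this is 0.386 and 0.308 CPM in naive and 0.751 and 0.784 CPM in RA+VitC iTreg libraries. This limit covers counting error only. The TMM factors of the RA+VitC iTreg libraries were 0.879 and 0.9, so their limits are somewhat higher on the scale used here. Between replicates the counts varied 1.08 times (naive) and 1.19 times (RA+VitC iTreg) as much as counting error alone. Of 135412 regions with enough reads to be tested, 51123 (37.8%) differed, 29718 (21.9%) higher and 21405 (15.8%) lower in RA+VitC iTreg (edgeR's quasi-likelihood test on all 8 pull-downs, Benjamini-Hochberg adjusted p under 0.05). The split of calls between higher and lower depended on the scaling. TMM gave 58.1% of calls higher, library size alone 42%, upper-quartile factors 47.5% and DESeq2 72.4%, and no region called in both was called in opposite directions. Library size moved the median log2 fold change of all regions by -0.23 and upper-quartile factors by -0.15. The inputs, tested in the same way, gave 3 calls among 44917 regions (0.00668%), with 2350 at an unadjusted p under 0.05, and 3 among 12824 genes (0.0234%).

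Among called regions, gains were larger than losses with TMM factors. The median log2 fold change was 1.57 among higher and -1.22 among lower regions, against -0.04 over all tested regions. A gain of at least 2-fold was called in 22504 regions, of at least 4-fold in 10586 and of at least 8-fold in 4236. Losses of those sizes were called in 13824, 2712 and 464 regions. Without TMM factors, a count of 0 allows up to 0.751 and 0.784 CPM in RA+VitC iTreg libraries against 0.386 and 0.308 in naive ones. Large losses were thus harder to measure than large gains, and the part of this in the contrast was not tested. The sizes also shift with the scaling, as given above. Where regions averaged 50 or more reads, 8006 were called higher and 7654 lower. Without regard to the test, both RA+VitC iTreg libraries lay above both naive libraries in 45416 regions (33.5%) and below both in 47502 (35.1%).

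**Figure D1:**
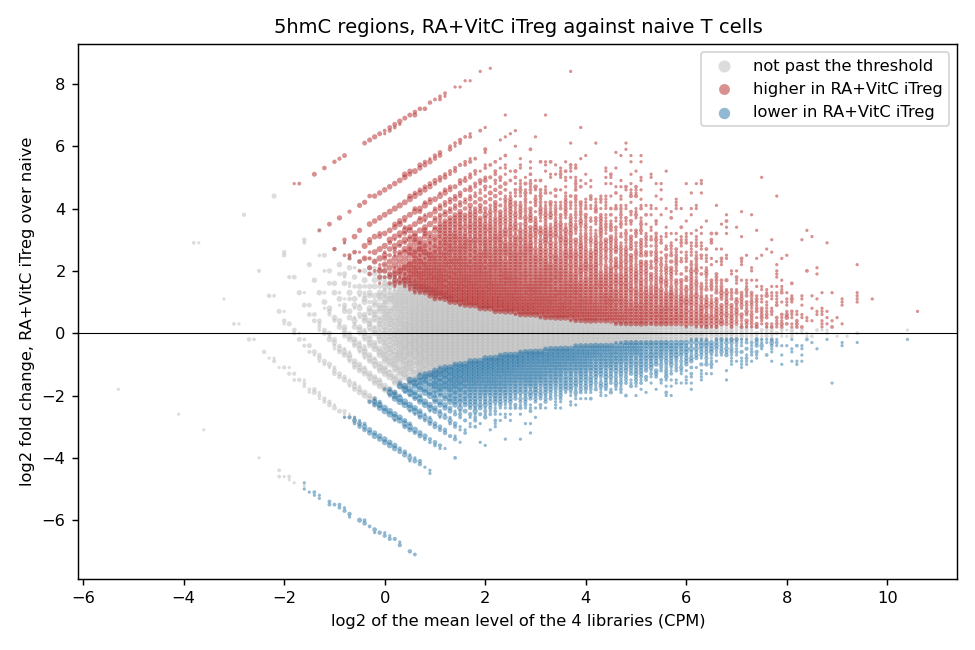
Each point is a bin of regions, at the log2 of their mean level over the 4 libraries (CPM, horizontal) and their log2 fold change of RA+VitC iTreg over naive cells (vertical), larger where a bin holds more regions. Red (29718 regions higher) and blue (21405 lower) passed the test; the diagonal streaks at the left are regions with very few reads.

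Counts were also summed over the regions that the table assigns to each gene. Of 14951 genes tested, 8336 (55.8%) differed, 4365 (29.2%) higher and 3971 (26.6%) lower in RA+VitC iTreg. The largest gains, among genes averaging 100 or more reads whose groups did not overlap, were over genes with very low naive levels. Cacng6, which encodes a subunit of voltage-gated calcium channels, stood at 1.73 and 3.2 CPM in the naive libraries and 93.8 and 98.6 in RA+VitC iTreg (log2 fold change 5.23, SE 0.16, edgeR adjusted p = 1.1e-61), and all 6 of its tested regions were higher. Pitx1, a homeobox factor of limb and pituitary development, went from 3.46 and 5.01 to 128 and 110.3 CPM (log2 4.78, SE 0.13). At both genes the TGFβ iTreg libraries lay close to RA+VitC iTreg, at 95.7 and 111 CPM over Cacng6 and 138 and 146 over Pitx1.

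Cytokine signalling genes and an inhibitory receptor gene were among these gains. Socs2, a feedback inhibitor of cytokine receptors, stood at 24 and 22.9 CPM in naive cells and 469.6 and 408 in RA+VitC iTreg (log2 fold change 4.23, SE 0.08, edgeR adjusted p = 8e-86), with 9 of 10 regions higher. Its TGFβ iTreg libraries had 224 and 289 CPM, below both RA+VitC iTreg libraries (log2 difference 0.76, edgeR adjusted p = 1.4e-17), and sorted Treg 69.2 and 70.7. Lifr, the receptor of leukaemia inhibitory factor, went from 7.19 and 5.96 to 118 and 94.1 CPM (log2 4.02, SE 0.13), with TGFβ iTreg at 116 and 119. Over regions on its transcript alone the gain was 1.29. Pilra, a paired immunoglobulin-like inhibitory receptor, stood at 3.86 and 4.47 CPM in naive cells and 69.9 and 62 in RA+VitC iTreg (log2 3.97, SE 0.16).

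H19, an imprinted non-coding RNA gene, differed between the 2 kinds of iTreg. It stood at 2.4 and 4.37 CPM in naive cells, 67.9 and 74 in RA+VitC iTreg, 16.1 and 26 in TGFβ iTreg and 4.17 and 2.96 in sorted Treg. Its gain over naive cells was 4.34 on the log2 scale (SE 0.17, edgeR adjusted p = 6.9e-51) and its difference from TGFβ iTreg 1.72 (edgeR adjusted p = 2.2e-15). All 3 H19 regions were higher than in naive cells, and the region over its start (chr7:149760511-149764770, mm9) held 33.1 and 35 CPM in RA+VitC iTreg against 3.57 and 8.48 in TGFβ iTreg and 1.41 and 2.26 in naive cells. Popdc2, a popeye-domain gene, stood at 20.5 and 21.7 CPM in naive cells, 373 and 385 in RA+VitC iTreg and 199.7 and 223 in TGFβ iTreg (log2 4.16 against naive, 0.84 against TGFβ iTreg). Stfa3, of the stefin A family of cysteine protease inhibitors, was the one named gain below TGFβ iTreg by over 1.5-fold, at 99.6 and 90.5 against 147 and 151 CPM (naive 4.26 and 5.86; log2 4.2 over naive, -0.65 against TGFβ iTreg); it belongs to a family of near-identical copies, whose reads could be split. Stxbp6 had the least even replicates of these gains, with 193 and 80.3 CPM in the 2 RA+VitC iTreg libraries and 5.59 and 6.71 in naive cells (log2 4.46, SE 0.17, and 3.69 without RA+VitC iTreg replicate 1). The remaining named gains were Pou5f1-rs4 (log2 4.21), related in sequence to Pou5f1, Fsd1l (4.2) and Tmem178b (3.99). Over regions on transcripts alone, Pou5f1-rs4 stood at 3.41 and Tmem178b at 1.8.

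**Figure D2:**
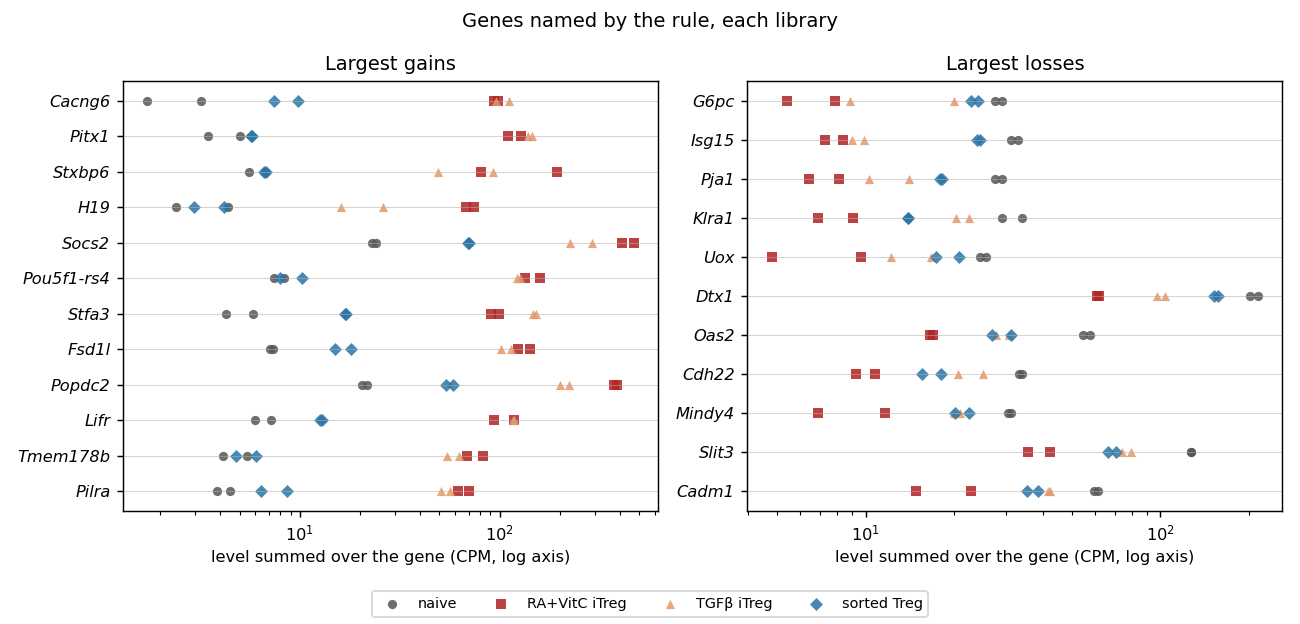
Level summed over each gene (CPM, log axis) in every pull-down library of the 4 groups, for the 12 genes with the largest gains (left) and 11 of those with the largest losses (right) in RA+VitC iTreg against naive cells. In both panels the RA+VitC iTreg squares lie apart from the naive circles, as the naming rule required. Over the losses of G6pc and Klra1 the squares also lie left of TGFβ iTreg.

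The largest losses were smaller in size than the gains. G6pc, the catalytic subunit of glucose-6-phosphatase, stood at 29 and 27.4 CPM in naive cells and 7.87 and 5.4 in RA+VitC iTreg (log2 fold change -2.08, SE 0.2, edgeR adjusted p = 7.8e-18). Isg15 went from 31.2 and 33 to 7.28 and 8.39 CPM (-2.04, SE 0.18) in 1 region that covers its start, and Oas2, an interferon-induced 2′-5′ oligoadenylate synthetase, from 54.7 and 57.9 to 16.9 and 16.5 (-1.76, SE 0.13). The naming rule took only genes whose groups did not overlap. Uox, urate oxidase (-1.78), was lower, as was Dtx1, a Deltex ubiquitin ligase of the Notch pathway (202 and 215 against 61.8 and 60.8 CPM, -1.77, SE 0.08). The adhesion genes Cadm1 (-1.69) and Cdh22, a cadherin (-1.74), the guidance ligand Slit3 (-1.71, with 18 of 25 regions lower), the NK receptor Klra1 (-1.96), the ubiquitin ligase Pja1 (-1.96) and Mindy4, a deubiquitinase-family gene (-1.72), were also among the largest losses. RA+VitC iTreg were also lower than TGFβ iTreg, past the threshold, at 9 of these 11 genes, Isg15 and Pja1 being the exceptions, while 10.7% of all genes tested were lower. The naming rule and this count use the same RA+VitC iTreg libraries, so the count is a description.

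At the Foxp3 locus all 3 regions were higher in RA+VitC iTreg, by amounts that differed along the gene. The table assigns the first 2 to Flicr, a non-coding RNA gene just upstream of Foxp3. The region upstream of the start (chrX:7152321-7155923, mm9, over a promoter) stood at 5.64 and 7.61 CPM in naive cells and 39.8 and 30.8 in RA+VitC iTreg (log2 fold change 2.39, SE 0.17, edgeR adjusted p = 9.1e-44), with 13.1 and 16.5 in TGFβ iTreg and 8.31 and 7.8 in sorted Treg. The region over the Foxp3 start, 5′ UTR and first exons (chrX:7156699-7163183) stood at 11.4 and 12.9 CPM in naive cells and 36.6 and 37.7 in RA+VitC iTreg (log2 1.6, SE 0.15). TGFβ iTreg were higher there, at 96.5 and 129.7 CPM (difference -1.62, edgeR adjusted p = 4.7e-33), and sorted Treg the lowest, at 5.24 and 7.32. The order differed over the 3′ part (chrX:7163959-7172345, exons, introns and 3′ UTR), where RA+VitC iTreg stood at 45.1 and 42.7 CPM against 14.3 and 20.5 in TGFβ iTreg (1.32, edgeR adjusted p = 3.4e-09), 34.8 and 39.3 in sorted Treg (0.24, edgeR adjusted p = 0.11) and 14.4 and 17 in naive cells (log2 1.48, SE 0.14). RA+VitC iTreg thus exceeded TGFβ iTreg in the outer regions and stood below them in the middle one, and their difference from sorted Treg over the 3′ part did not pass the test.

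Il2ra was higher in all 7 of its regions. Its gene body (chr2:11568438-11596474) rose 8.76-fold, from 78.7 and 74.4 CPM in naive cells to 682 and 657 (log2 3.13, SE 0.08), and its 3′ region (chr2:11597273-11619124) 15-fold, from 17.2 and 16.6 to 265 and 242 CPM (log2 3.91, SE 0.1). At the start region (chr2:11563877-11567653), which covers the gene start, the gain was 2.52-fold, from 5.26 and 4.11 to 12.6 and 10.8 CPM (log2 1.33, SE 0.24, edgeR adjusted p = 3.8e-07). TGFβ iTreg differed from RA+VitC iTreg in opposite directions along the gene. They were higher at the start, at 68.5 and 79.8 CPM (RA+VitC minus TGFβ iTreg -2.67, edgeR adjusted p = 4e-47), and lower over the gene body (385 and 484 CPM, 0.62) and the 3′ region (96.5 and 123 CPM, 1.19, edgeR adjusted p = 7.4e-30). CD25, absent from the naive gate, is the protein of Il2ra.

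**Figure D3:**
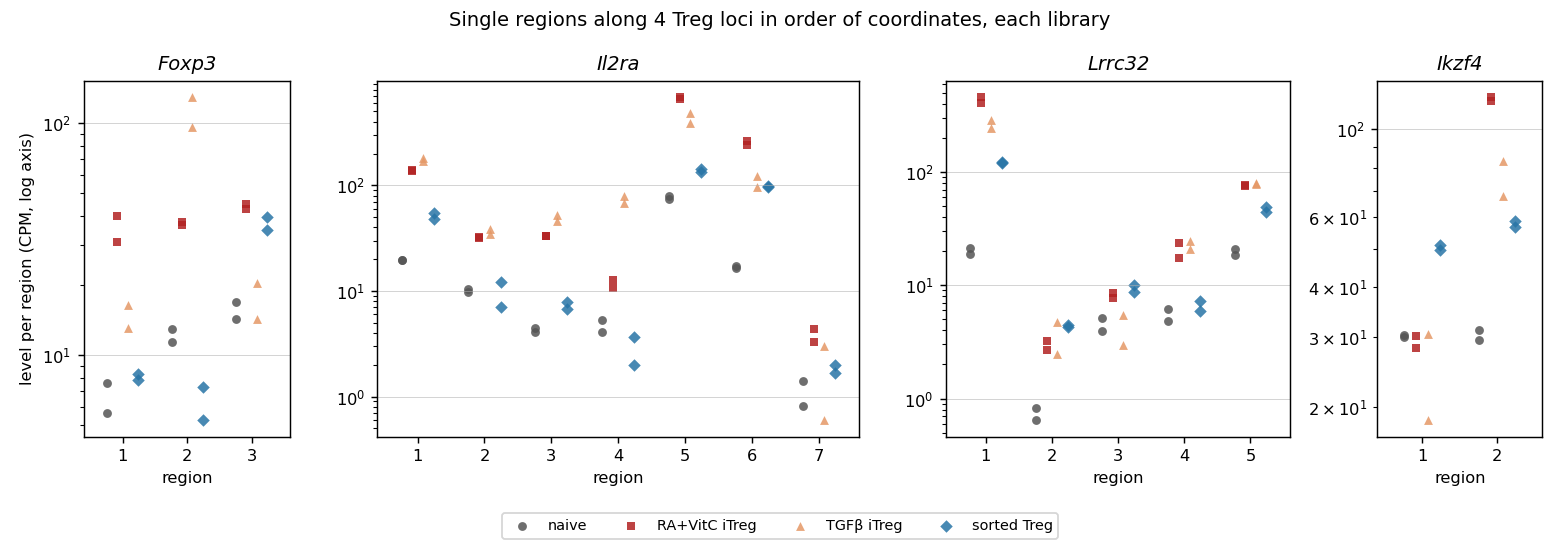
Level of each region (CPM, log axis) in every pull-down library, for the regions at Foxp3 (the first 2 assigned to Flicr), Il2ra, Lrrc32 and Ikzf4, numbered in order of mm9 coordinates. At Foxp3 region 2 and Il2ra region 4, the regions over the gene start, TGFβ iTreg (triangles) stand above RA+VitC iTreg (squares), and at Foxp3 region 3 and Il2ra region 6 below.

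The other Treg loci were higher in most regions. Ctla4, the inhibitory receptor, was higher in all 11, the widest of them over its start (chr1:60948242-60980683) with 76.9 and 75.3 CPM in naive cells and 442 and 419 in RA+VitC iTreg (log2 2.5, SE 0.08), where TGFβ iTreg stood at 371 and 456 and sorted Treg at 118 and 114. Both regions of Tnfrsf18, the receptor GITR, were higher (log2 1.14 and 1.49). Ikzf4, which encodes Eos, was higher in the region over its start (chr10:128074640-128082643, 31.2 and 29.5 against 120.4 and 117 CPM, log2 1.97), whereas its neighbour (chr10:128064275-128073736) stood at 30.0 and 30.3 CPM in naive cells and 28.1 and 30.2 in RA+VitC iTreg (-0.05, SE 0.14, edgeR adjusted p = 0.81). Ikzf2, which encodes Helios, was higher in 30, lower in 3 and not called in 19 of 52 regions. Its body region at chr1:69624171-69648754 rose from 25.4 and 25 to 64.5 and 61.6 CPM (log2 1.32, SE 0.12), far below sorted Treg at 240.4 and 237 (difference -1.92). Lrrc32, which encodes GARP, the docking protein of latent TGFβ, was higher in all 5 regions, and the one over its start (chr7:105638978-105654721) stood at 19 and 21.2 CPM in naive cells, 458 and 410.4 in RA+VitC iTreg, 244 and 287 in TGFβ iTreg and 120.1 and 123 in sorted Treg (log2 4.43 over naive).

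Of 29 tested members of a Treg signature list, 25 were higher and 1 lower than in naive cells, with a median log2 fold change of 1.24. Over all genes tested 29.2% were higher and 26.6% lower, with a median of -0.02, and the list counts that follow are to be set against these shares. After Socs2, Lrrc32 (log2 3.36) and Il2ra (3.04), the largest gains were over Rgs1, which dampens chemokine receptor signals (86.1 and 82 against 466 and 438 CPM, 2.43), Ctla4 (2.09), Nt5e, the ectonucleotidase CD73 (1.83), Plagl1 (1.77) and Nrp1, neuropilin (1.76). Il10, the inhibitory cytokine, was higher (32.6 and 32.6 against 94.7 and 117 CPM, 1.69). Gata3 was the member that was lower (-0.39). Cd83 (0.1), Klrg1 (0.09) and Lag3 (-0.02) did not pass, and Klrg1 and Itgb8, whose integrin releases TGFβ from its latent form (0.37 against naive), stood below sorted Treg (log2 differences -1.85 and -1.69). The call of Itgb8 was lost under 6 of its 14 alternatives.

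The IL-2 and STAT5 list had 12 higher and 3 lower of 18 tested genes (median 0.49), where all genes had 29.2% higher and 26.6% lower. Beside Socs2, Lifr and Il2ra, Cish was higher (51 and 54.3 against 392 and 369 CPM, log2 2.85), mainly through the region over its 5′ UTR (chr9:107199560-107214980, 44.7 and 48.1 against 386 and 361 CPM). Il2rb, the shared β chain of the IL-2 and IL-15 receptors (2.0), the kinase Pim1 (1.64) and Socs1 (1.56) were higher. The Socs1 gain came from 3 intergenic regions, and its 3′ UTR region held 2.05 and 1.64 CPM in naive cells and 0.293 and 0 in RA+VitC iTreg. Il7r, the IL-7 receptor (-0.38), Jak1 (-0.19) and Il2rg (5.33 and 5.86 against 2.91 and 3 CPM, -0.92) were lower, and Stat5a and Stat5b stood at 0.18 (higher) and -0.0023 (not called). The calls of Il2rg and Stat5a were lost under 5 and 6 alternatives, among them 1 or both leave-outs of an RA+VitC iTreg library.

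**Figure D4:**
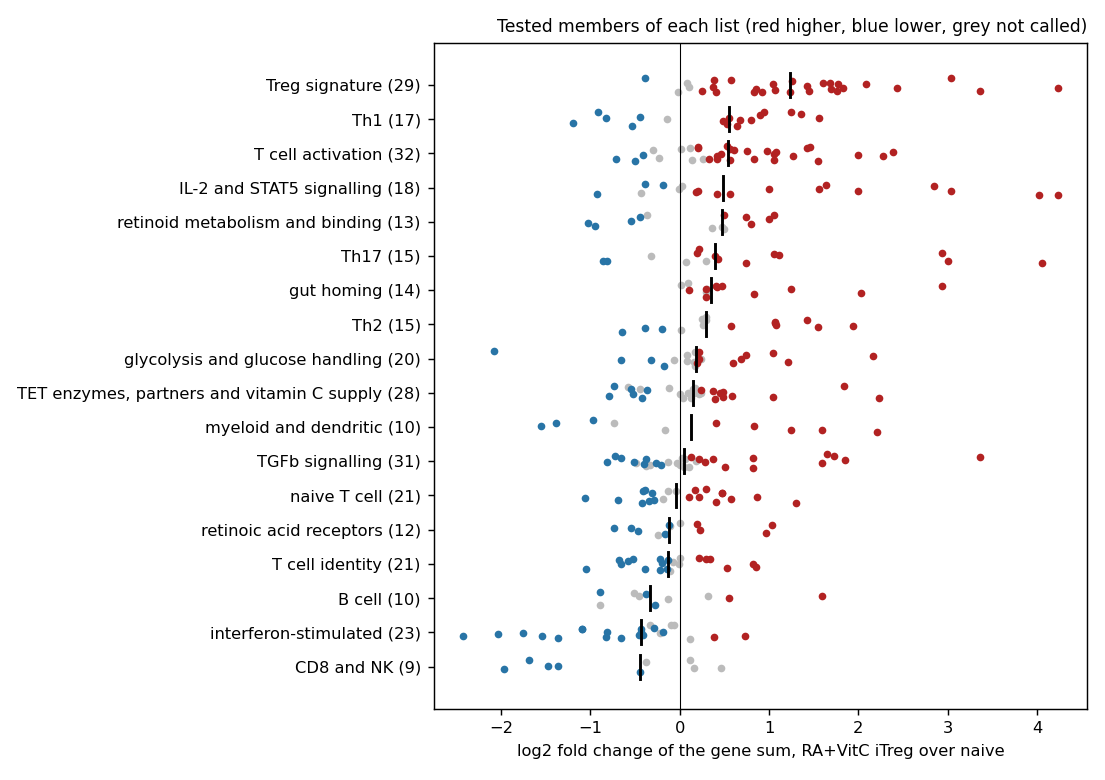
log2 fold change of the gene sum, RA+VitC iTreg over naive, for each tested member of 18 gene lists (points, jittered vertically) with the list's median (black bar) and its number of tested members in brackets. The Treg signature has the highest median (1.24), and the interferon-stimulated (-0.44) and CD8 and NK lists (-0.45) the lowest.

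Interferon-stimulated genes went the other way. Of 23 tested, 16 were lower and 2 higher, with a median of -0.44, against 26.6% of all genes lower. Mx1, an antiviral GTPase, held 3.86 and 2.77 CPM in naive cells and 0.583 and 0.599 in RA+VitC iTreg, 1 region with too few reads in RA+VitC iTreg to give a ratio. Rtp4 (76.3 and 74.6 against 26.2 and 25.5 CPM, -1.54), Irf9, the DNA-binding subunit of the interferon-activated ISGF3 complex (75.3 and 72.1 against 30.0 and 27.3 CPM, -1.36), Oasl2 (-1.1) and Mx2 (-1.09) were lower, with no overlap between the groups. Regions over the starts of Isg15 (-1.98), Oas2 (-2.12), Irf9 (-1.38) and Oasl2 (-1.29) were lower, whereas those over the starts of Ifit3 (-0.07), Oas3 (-0.22), Rsad2 (-0.4), Stat2 (-0.12) and Usp18 (-0.13) were not called. Both members that were higher, Oas1a (0.73) and Isg20 (0.39), lost their calls under 9 and 11 alternatives, and Oas1a turned to -1.61 over regions on its transcript alone. TGFβ iTreg held 8.99 and 9.89 CPM at Isg15 and 25 and 33.3 at Irf9, and their own comparison with naive cells would share the naive libraries. Of the 18 members in the promoter table, 10 had the GAAA pair, which 3.44% of all promoters had. Among these, Isg15, Ddx58, Ifih1, Ifit3 and Rsad2 were lower and Oas1a was higher. Bst2, Oas3 and Stat2 were not called, and Ifit1 was not tested. Irf9 had no match. Whether the motif goes with the losses was not tested.

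Genes of the RA pathway went both ways. Among receptors and their cofactors, 4 were higher and 5 lower of 12 (median -0.12). The corepressor Nrip1 (1056 and 1081 against 2271 and 2106 CPM, log2 1.03, SE 0.04) and the coactivator Ncoa3 (0.96) were higher, and both exceeded TGFβ iTreg (by 1.22 and 0.81, edgeR adjusted p = 2.5e-47 and 2.5e-27). The receptor Rara stood at 234 and 225 CPM in naive cells and 232 and 226 in RA+VitC iTreg (0.001, SE 0.06), and Rarg (0.22) and Rxra (0.19) passed by small amounts that 7 and 6 alternatives took below the threshold. Of 13 tested genes of retinoid metabolism and binding, 5 were higher and 4 lower (median 0.47). The RA-degrading enzyme Cyp26b1 (5.46 and 4.15 against 11.9 and 7.79 CPM, 1.06), whose call was lost without RA+VitC iTreg replicate 1, the retinol uptake receptor Stra6 (32.9 and 30.4 against 52.7 and 56.7, 0.79) and the retinaldehyde reductase Dhrs3 (48.4 and 52.5 against 89.1 and 80.6, 0.75) were higher than in naive cells, and also than in TGFβ iTreg, by 1.4, 0.51 and 0.98. Cyp26a1, another RA-degrading enzyme, was lower (15.5 and 16.3 against 9.32 and 6.29 CPM, -1.02), and Cyp26c1, of the same family, was not called (-0.37, edgeR adjusted p = 0.32).

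Of 14 gut-homing genes 10 were higher and none lower (median 0.35), with 29.2% of all genes higher. Ccr6, the receptor of the chemokine CCL20, was the largest (34.9 and 38.5 against 285 and 279 CPM, log2 2.93, SE 0.07). Ccr9, the receptor that draws cells to the small intestine, stood at 243 and 214 CPM in naive cells, 309 and 301 in RA+VitC iTreg and 215 and 213 in TGFβ iTreg (0.42 over naive, 0.51 over TGFβ iTreg, edgeR adjusted p = 8.3e-09), and its start region rose by 0.95. The chains of the gut-homing integrin, Itga4 (0.4) and Itgb7 (0.3, not called with library size alone), were higher, Itga4 also than TGFβ iTreg (0.49). Gpr15, the colon-homing receptor, was higher than in naive cells (16.4 and 15.7 against 61.2 and 69.8 CPM, 2.03), through regions outside its transcript, and lower than in TGFβ iTreg (125 and 179 CPM, -1.24).

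In the TGFβ pathway 12 genes were higher (38.7%) and 8 lower (25.8%) of 31 (median 0.05), against 29.2% and 26.6% of all genes. Pmepa1, which sequesters Smad proteins, stood at 207 and 216 CPM in naive cells, 697 and 628 in RA+VitC iTreg and 243 and 267 in TGFβ iTreg (log2 1.65 over naive, 1.37 over TGFβ iTreg, edgeR adjusted p = 5e-40). Skil, a Smad corepressor, stood at 379 and 396, 697 and 667 and 357 and 433 CPM in the same order of groups (0.82 over naive), with the TGFβ iTreg libraries on either side of the naive ones. Itgav, an integrin chain (1.72), and the repressor Tgif1 (1.6) were higher, while the accessory receptor Tgfbr3 (1339 and 1326 against 768 and 748 CPM, -0.81), the ubiquitin ligase Smurf1 (-0.51) and the receptor Tgfbr2 (-0.26) were lower.

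Among TET enzymes and their partners 10 of 28 were higher (35.7%) and 6 lower (21.4%), with a median of 0.15, near the shares over all genes (29.2% and 26.6%). Tet1 was lower (201 and 211 against 127 and 120.5 CPM, log2 -0.73, SE 0.07), and Tet2 (153 and 152 against 190.2 and 203, 0.37) and Tet3 (542 and 548 against 664 and 624, 0.24) were higher; Tet2 lost its call over regions on transcripts alone and Tet3 with library size alone. Dnmt3l, a cofactor of de novo methyltransferases (15.2 and 14.2 against 73.1 and 64.4 CPM, 2.23), and the methyl-CpG binding gene Mbd1 (1.83) had the largest gains. Of the vitamin C transporters, Slc23a2 stood at 209 and 221 CPM in naive cells and 221 and 222 in RA+VitC iTreg (0.04, SE 0.06). Slc2a1, the glucose transporter GLUT1, which also carries oxidised vitamin C, was higher (99.1 and 91 against 205 and 186 CPM, 1.05). Glycolysis genes had 9 higher and 4 lower of 20 (median 0.19), from hexokinase Hk2 (68.7 and 67.4 against 307 and 305 CPM, 2.17) to G6pc.

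T cell activation genes were higher in 23 and lower in 3 of 32 (median 0.55), against 29.2% and 26.6% of all genes, shares that also stand beside the T helper lists here. The AP-1 subunit Jun (10.8 and 9.27 against 57.4 and 46.5 CPM, log2 2.38) and the repressor Bhlhe40 (49 and 49 against 228 and 246, 2.27) led, and the immediate early factor Egr1 was lower (118 and 124 against 66.4 and 81.5, -0.72). Th17 genes were higher in 10 and lower in 2 of 15 (median 0.39). Ccl20 (1.6 and 0.959 against 17.5 and 24.6 CPM, 4.05) and Il17f (1.33 and 1.6 against 9.32 and 14.7, 3.0) rose, whereas the cytokine Il17a held 1.2 and 1.6 CPM in naive cells, 3.2 and 3 in RA+VitC iTreg and 19.9 and 35.9 in TGFβ iTreg. Il17a was lower than in TGFβ iTreg (log2 difference -3.19, edgeR adjusted p = 2e-14); its difference from naive cells (1.12, edgeR adjusted p = 0.04) was lost under 8 of 12 alternatives. Il23r (-0.82) and Il21 (-0.86) were lower than in naive cells. Th1 genes were higher in 11 and lower in 5 of 17 (median 0.56), from the IL-18 receptor chain Il18rap (1.55) to the IL-12 receptor chain Il12rb2 (209.8 and 207 against 88.6 and 93.8 CPM, -1.19). Th2 genes were higher in 7 and lower in 3 of 15 (median 0.29), with Nfil3 at 1.94.

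Naive T cell genes were split, 10 higher and 8 lower of 21 (median -0.04). Satb1, a chromatin organiser, had the largest loss (2800.3 and 2778 against 1304 and 1369 CPM, log2 -1.06, SE 0.04). The quiescence factors Foxp1 (3405 and 3488 against 5293 and 5009.9 CPM, 0.58), Bach2 (0.48), the Tec-family kinase Txk (0.87) and Treml2 (1.3) were higher, and Lef1 (-0.34) and Foxo1 (-0.31) lower. Foxp1 and Bach2 also exceeded TGFβ iTreg, by 0.76 and 0.67, and sorted Treg, by 0.81 and 0.64.

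As a check of the cells, T cell identity genes had levels in every library and were lower in 11 and higher in 6 of 21 tested (median -0.13). The CD3 chain gene Cd3g had the largest loss (77.7 and 75.6 against 38.7 and 35.1 CPM, log2 -1.05), Cd4 was lower (-0.52), and Trat1 (0.86) and Thy1 (0.83) were higher. One member, Themis, also differed between the inputs (log2 0.27, edgeR adjusted p = 0.024), where 0.0234% of all genes did. Marker lists of other cells were read in the same way. B cell markers summed to 203 and 208 CPM in naive cells and 182 and 201 in RA+VitC iTreg, with 2 higher and 3 lower of 10; Pax5, the B cell lineage factor, had the largest gain (4.13 and 3.62 against 14.6 and 8.69 CPM, 1.59), Cd79b was higher (0.55), Cd22 (-0.9), Blnk (-0.38) and Cd79a (-0.27) were lower, and the surface marker Ms4a1 was not called (-0.89, edgeR adjusted p = 0.12). CD8 and NK markers summed to 779.5 and 778 CPM in naive cells and 493 and 496 in RA+VitC iTreg, with 5 lower and none higher of 9, Cd8b1 (153 and 158 against 46.6 and 50.1 CPM, -1.69) and Cd8a (-1.48) among them. Myeloid and dendritic markers summed to 501 and 507 against 344 and 378 CPM and had 5 higher and 3 lower of 10, among them Adgre1, which encodes F4/80 (10.7 and 11.7 against 54.5 and 49.8 CPM, 2.21, and 0.84 at the lowest over the alternatives), and Flt3 (191 and 201 against 61.2 and 72.8, -1.55), and the macrophage lysozyme Lyz2 held 1.86 and 0.746 against 0.874 and 0.599 CPM. The part of other cells in the gains and losses above was not tested.

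Single regions gave larger differences than gene sums. An intron of Gldc, the glycine decarboxylase (chr19:30236717-30239716), went from 0.897 and 0.617 to 56 and 51.4 CPM (log2 6.14, SE 0.23), and an intergenic region with no gene assigned (chr13:29131711-29133147) from 0.385 and 0.206 to 32.2 and 26.6 (log2 6.58). Another intergenic region on chromosome 5 (chr5:36779663-36782581) stood at 0.385 and 0.617 CPM in naive cells, 37.2 and 37.1 in RA+VitC iTreg and 17.3 and 13.5 in TGFβ iTreg. An intron region of Ppp2r5c, a phosphatase regulatory subunit (chr12:111186951-111190440), stood at 1.03 and 1.13, 62.4 and 53.5 and 17.3 and 20.0 CPM in the same order (log2 5.71 over naive, 1.63 over TGFβ iTreg, edgeR adjusted p = 1.2e-16). The losses were led by intergenic regions near Kcng3 (chr17:83965037-83966034, 12.4 and 10.7 against 0.586 and 1.49 CPM, log2 -3.44, SE 0.38) and Prdm11 (chr2:92812172-92813939, 13.1 and 13.6 against 1.46 and 1.49, -3.15).

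On promoters and 5′ UTRs, the largest gains were over Syndig1l (chr12:86021121-86023503, 1.15 and 1.34 CPM in naive cells, 66.2 and 49 in RA+VitC iTreg and 14.9 and 14 in TGFβ iTreg; log2 5.5 over naive, 2.0 over TGFβ iTreg, edgeR adjusted p = 5.4e-22), Trim9, a ubiquitin ligase (chr12:71450404-71452202, 0.897 and 1.13 against 39.6 and 40.1 CPM, 5.25), and Tnfrsf13b, over the start whose sequence is shown above (chr11:60939154-60944468, 1.54 and 1.85 against 65.3 and 62.8 CPM, 5.21). All 3 were higher than in TGFβ iTreg, past the threshold. Losses on promoters were led by Papss2, an enzyme of sulfate activation (chr19:32690133-32692775, 12.4 and 12.1 against 2.64 and 2.39 CPM, -2.28), and by Oas2 and Ccdc77 regions (-2.12 and -2.09).

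Some genes changed over many regions at once; those with the most called regions were singled out after the values were seen. Ppm1l, a phosphatase gene, was higher in 57 of 68 regions and lower in none (212 and 219 against 1268 and 1204 CPM, log2 2.52), Adamts6 in 56 of 69 and Pvt1, a non-coding RNA gene beside Myc, in 90 of 139. Satb1 was lower in 72 of 110 regions and higher in 6, and its neighbour Kcnh8 lower in 54 of 80. Within Satb1 the large start region (chr17:51871261-51916537) fell from 703 and 682 to 226 and 245 CPM (log2 -1.56), while a smaller promoter region (chr17:51966140-51966629) went from 0 and 0.103 to 5.86 and 6.88. In 3768 of 14736 genes with a tested region there was at least 1 higher and 1 lower region, in 4375 only higher and in 2729 only lower calls. Gene sums can hide this. Ext1, a heparan sulfate polymerase, had 19 higher and 19 lower of 72 tested regions and a sum of 0.14 on the log2 scale, and Exoc4, of the exocyst, had 22 higher and 20 lower of 109 tested regions and a sum of 0.01 (edgeR adjusted p = 0.9).

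Regions between genes were called higher most often, 25.5% of 43558, against 20.5% of introns, 22.3% of 5′ UTRs and 18.6% of promoters outside the 5′ UTR. Lower calls were most frequent on 5′ UTRs (19.4%) and least on promoters outside them (11.5%). These shares rose with the level of the regions, from 12.5% higher and 8.89% lower in the quintile with the lowest mean level to 38.3% and 24.1% in the highest. Median widths were 894 bp for intergenic and 2261 bp for 5′ UTR regions. Within the highest quintile, 46.5% of intergenic and 32% of 5′ UTR regions were higher. Of 3103 regions over the start of their own gene, 775 were higher (25%) and 628 lower (20.2%). Among genes with a higher start region and other tested regions, 365 (50.3%) had only higher calls elsewhere and 41 (5.66%) only lower ones, and among those with a lower start region 200 (34.3%) had only lower and 57 (9.78%) only higher calls elsewhere. Among genes whose start region was not called these shares were 24% only higher and 18.3% only lower.

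**Figure D5:**
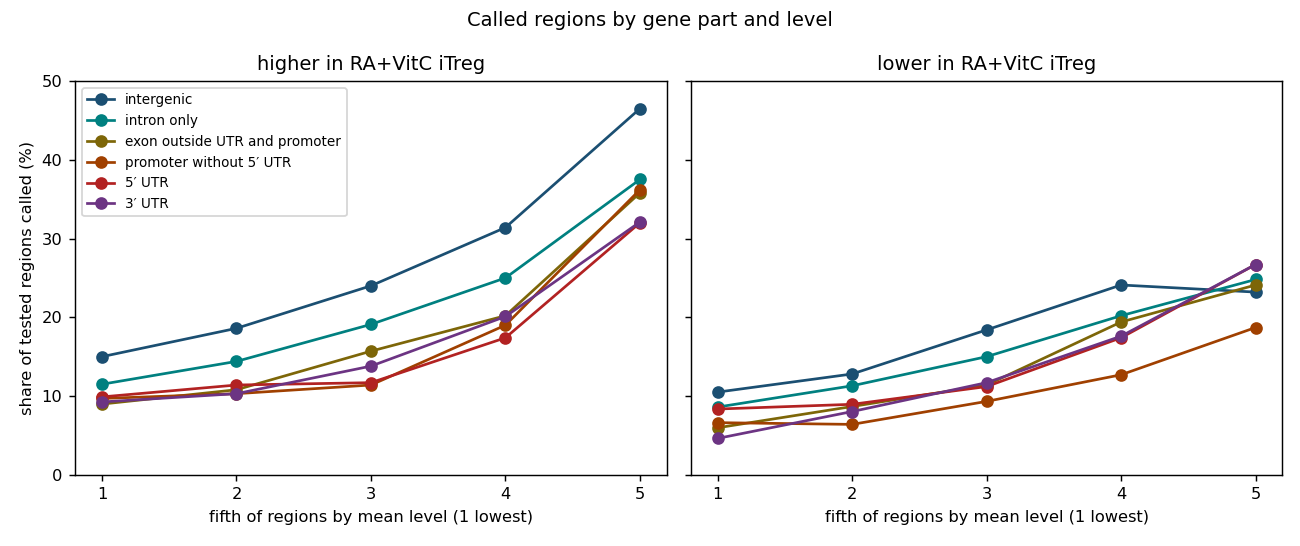
Share of tested regions called higher (left) or lower (right) in RA+VitC iTreg against naive cells, in percent, by quintile of mean level and by gene part (lines). All lines rise with the level except the intergenic losses, which stand at 24.1% in the second highest quintile and 23.2% in the highest, and the promoter losses between the lowest 2 quintiles (6.62% and 6.4%).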

How the data were processed

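5hmC was mapped by CMS-IP in 4 groups of mouse CD4 T cells, each with 2 pull-down and 2 input libraries. The deposited table holds the authors' raw counts of reads, whole numbers per library, in 177720 regions on mm9. Per the name of the deposited table, the regions are a union of broad peaks. They had a median width of 745 bp and covered 259 Mb. Per the submitters' processing notes, reads passed through bcl2fastq 2.20.0.442; MACS2 2.1.0.20151222, SAMtools 1.7 and Trim Galore 0.4.2 were also used. For the aligner and the read counter, a name is not given in the sources used here. Spike-in amplicons were not used here.

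Counts were fitted with edgeR 4.0.16 in R 4.3.3 (TMM, filterByExpr minimum count 10, quasi-likelihood F test with group as the one term, all 8 pull-downs, 4 residual degrees of freedom, Benjamini-Hochberg over all features, threshold 0.05). SE is the log2 fold change over the square root of F. Genes are counts summed by the table's transcript symbol (15543 symbols; 14577 regions have none). A region also counts for a gene when it lies beside it. Alternatives, among them DESeq2 1.42.0, are in the closing section. The test was checked on simulated data.

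Genes named are the 12 largest and 12 smallest log2 fold changes that passed, averaged 100 or more reads in the 4 libraries and did not overlap between groups, without predicted, miRNA, snoRNA and olfactory genes; regions the 8 largest each way averaging 50 or more reads, 1 per symbol, plus 4 each way on promoters or 5′ UTRs; and the 6 genes with the most regions in both directions, of which examples are given. Members of 18 gene lists are named at their extremes and where defining. A few genes and regions that these rules take are not reported here, but stay in the counts over lists and over all features. The comparison, its lists and its rules were chosen with earlier results of these data known. Same-numbered libraries did not deviate together (correlations 0.005, 0.008 and 0.002), so numbers were not taken as pairs. Coordinates are the table's, whose widths equal end minus start plus 1.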

Additional observations from a re-analysis of the deposited data

Results flagged for a closer look

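Of 56 named genes and Treg locus regions (regions averaging 50 or more reads), 12 differed in their gain or loss from that of TGFβ iTreg by at least 2-fold in edgeR's direct test of RA+VitC iTreg against TGFβ iTreg. The difference of the 2 gains or losses equals that test, since both would be taken against the same naive libraries. Over all features, with no minimum fold, 6.58% of regions differed from TGFβ iTreg, and 12.4% of genes were higher and 10.7% lower. The share past 2-fold over all features was not counted. The genes were named with the same RA+VitC iTreg libraries that this test uses, so the count is a description. RA+VitC iTreg were higher than TGFβ iTreg over H19 (log2 1.72), an Ikzf2 region (chr1:69544175-69548144, 1.35), the 3′ part of Foxp3 (1.32), the region upstream of it (1.24) and the 3′ region of Il2ra (1.19). They were lower over the region on the Foxp3 start (-1.62) and over the named losses Klra1 (-1.41), Cdh22 (-1.19), Cadm1 (-1.16), Mindy4 (-1.13), G6pc (-1.05) and Uox (-1.02). Groups of 2 libraries were too small for a test of single outlying samples.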

How the results depend on the processing

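All 24 regions and 24 genes taken by the naming rule kept direction and call under every alternative that gave a value for them. They were named for large changes in these same libraries, so this was largely set by the rule and is a description. Some moved in size. Over regions on transcripts alone, Lifr went from 4.02 to 1.29, Tmem178b from 3.99 to 1.8 and Pou5f1-rs4 from 4.21 to 3.41. Without RA+VitC iTreg replicate 1, Stxbp6 went from 4.46 to 3.69 and Uox from -1.78 to -2.37. With libraries thinned to equal depth, H19 went from 4.34 to 5.1. Lower regions numbered 21405 and moved to 33394 with library size in place of TMM, 7995 with DESeq2, 7654 where regions averaged 50 or more reads, and 9048 with a minimum fold of 1.5. Leaving out 1 library gave 11328 to 17384 lower regions (11328 without RA+VitC iTreg replicate 1 and 12573 without replicate 2) and 23250 to 24358 higher ones. Higher regions went from 29718 to 8006 where they averaged 50 or more reads. A minimum fold of 1.5 left 1889 of 4365 genes higher and 817 of 3971 lower. With the replicate number as a block nested in the source of the cells, 28907 regions were higher and 21626 lower. For genes the counts were 4356 and 4013. Whether the numbers pair the samples is not known, and no call turned. The share of calls that were higher was 68.9% with the minimum fold, and 67.2% and 66% without RA+VitC iTreg replicate 1 and 2. Of 232 called list members, 94 were called under every alternative. Across alternatives the Treg signature had 20 to 27 genes higher, gut homing 4 to 10, and interferon-stimulated genes 8 to 18 lower. Causes of these moves were not tested. RA+VitC iTreg libraries are shallower than naive ones, which limits regions of few reads.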
